A study of Mus musculus with 6 samples.

Results

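Collagen chain genes encode the main structural proteins of the extracellular matrix. They were taken here as all genes whose single symbol in the array's probe annotation is Col, a type number, the letter a and a chain number. This gave 41 genes measured by 72 probes, out of 28651 genes or unnamed probes and 38467 probes on the array. The cells were C3H10T1/2, a mouse mesenchymal line able to differentiate toward adipocytes, muscle, bone and cartilage. Of 6 cultures, 3 were given DMSO (the vehicle) and 3 were given 1 µM dexamethasone, a synthetic glucocorticoid, for 90 minutes. Both groups were grown in serum-containing medium. Each culture's RNA was labelled with Cy3 and hybridised to its own two-colour array against a Cy5-labelled pool of RNA. The pool came from C3H10T1/2 cells given DMSO, dexamethasone or myostatin per the sample labels. The series description calls the replicates biological.

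Collagen chains wind around each other into helices, and the chain composition defines the collagen type. The fibrillar types (I, II, III, V, XI, XXIV and XXVII) pack into the fibrils that give tissue its tensile strength. Type IV chains instead form a sheet-like network in basement membranes, and types VII, XV and XVIII lie in or beside that layer. The other types include fibril-associated chains, type VI microfilaments, network-forming types VIII and X, and chains that span the plasma membrane. Mesenchymal cells and fibroblasts are the chief makers of types I and III, and glucocorticoids are known to lower collagen synthesis in skin and fibroblasts over longer exposures. By class, 11 of the genes were fibrillar, 9 belonged to the basement membrane and 21 were of other types.

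The deposited values are taken as log2 ratios of a culture to the pool, so a value says how a gene stands relative to the pool and cannot be compared between genes. The sources do not give the direction of the ratio: culture over pool is assumed, and the opposite reading would swap higher and lower in all of the comparisons below. The lowest Spearman correlation between arrays across all probes was -0.33 (vehicle 2 with dexamethasone 3). Dexamethasone 1 correlated at 0.52 and 0.40 with vehicle 1 and 2, but at -0.225 and -0.27 with dexamethasone 2 and 3. Vehicle 3 correlated at 0.40 and 0.34 with dexamethasone 2 and 3, and at 0.07 with vehicle 1 and with vehicle 2. High correlations thus did not keep to the treatment groups. Dusp1, a phosphatase that glucocorticoids induce, had -2.84, -2.67 and -2.88 with vehicle against 1.32, 1.55 and 1.52 with dexamethasone. The labels separate this gene cleanly: it is higher with dexamethasone under the assumed direction and would be lower under the opposite one. Fkbp5, whose protein binds the receptor's Hsp90 complex, had -3.02, -3.06 and -3.00 against 1.30, 0.20 and 1.23. Signal quality was uneven: values equal to a ratio of whole numbers from 1 to 10, a mark of very dim spots, made up 1.86% and 1.95% of vehicle 1 and 2 and 3.79% of dexamethasone 1, but 7.73% of vehicle 3 and 10.5% and 12.7% of dexamethasone 2 and 3. These 2 sets of 3 arrays are called the clean set and the dim set below, by these ratios alone. Missing values split by treatment instead, with 552, 825 and 932 probes on the vehicle arrays against 1695, 2837 and 4290 on the dexamethasone arrays. The column medians ran from -0.12 to 0.57, and the median difference, dexamethasone minus vehicle, over all 27046 genes and unnamed probes tested was 0.32, so a collagen gene's difference is best read against that shift.

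No collagen gene passed the test after 90 minutes of dexamethasone. Of the 41 genes, 40 had the 2 values per group that the test required; Col26a1 had a value on only 1 vehicle array (6.19), with -0.12, 2.83 and 4.87 on the dexamethasone arrays. In limma, 0 of the 40 had a Benjamini-Hochberg adjusted p under 0.05, and the background was 0% of all features. Dusp1 (limma adjusted p = 0.0556) and Fkbp5 (limma adjusted p = 0.141) did not pass in the same fit either. At an unadjusted p under 0.05 there were 3 collagen genes, all higher (Col4a1, Col4a4 and Col27a1), against 4.43% of all features higher and 0.995% lower. That is 7.5% of the collagen genes against a background of 5.43% in both directions. With the sign turned the 3 would be lower. The count was 1 without vehicle replicate 2 (695 of 26458 features), 1 without dexamethasone replicate 3, and 14 of 37 without dexamethasone replicate 1, where 29.2% of all features were also under 0.05. The fit without dexamethasone replicate 1 sets dim-set arrays against mostly clean-set ones.

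The 40 differences ran from -0.66 to 3.99 with a median of 0.46, and 30 were above 0 (75%), against a median of 0.32 and 68.2% above 0 for all features. The group values did not overlap in 9 collagen genes. Of these, 8 were higher on every dexamethasone array that had a value (20%, background 10.4%). The other 1 was lower (2.5%, background 6.42%). With the sign turned these would be 1 higher and 8 lower. The 8 were Col4a1, Col4a2, Col4a4, Col18a1, Col5a1, Col27a1, Col6a2 and Col13a1, and the 1 was Col4a5. Col13a1 had no value on dexamethasone 2. By class the medians were 0.09 for fibrillar, 0.31 for basement membrane and 0.62 for other genes; no test was made of the differences between classes. With every array centred on its own median the class medians were -0.21, 0.0003 and 0.31, with 0.15 for all 40, and 6 genes were higher without overlap (15%, against 6.43% of all features) and 0 lower (3.82% of all features). The groups of Col4a2, Col4a5, Col18a1 and Col5a1 overlapped once centred.

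**Figure D1:**
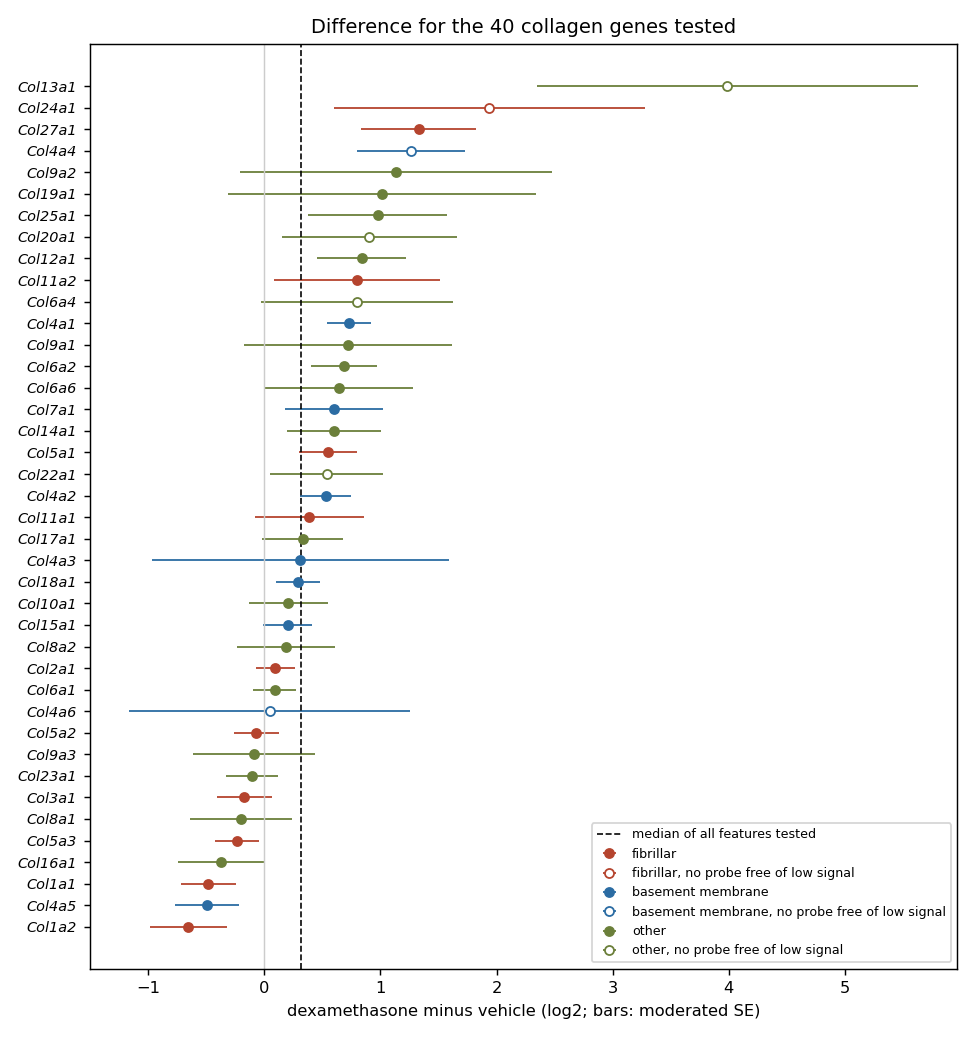
Difference in log2 ratio, dexamethasone minus vehicle, for each of the 40 collagen genes tested, with the moderated standard error as bars, coloured by class; open symbols mark genes without any probe free of missing or low-signal values. The dashed line is the median of all features tested (0.32), and the values run from -0.66 for Col1a2 to 3.99 for Col13a1.

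Among basement membrane genes, both chains of the ubiquitous type IV network stood higher with dexamethasone. Col4a1, which encodes the alpha 1 chain, had values of -0.30, -0.33 and -0.30 in the vehicle cultures against 0.29, 0.66 and 0.31 in the dexamethasone cultures. The vehicle cultures nearly coincided, and every dexamethasone culture was well above them. The difference was 0.73 ± 0.19 (SE), a 1.66-fold higher level (limma unadjusted p = 0.0119, adjusted p = 0.685), so it did not pass. Col4a2, the alpha 2 chain that joins it in the same molecule, had -0.37, -0.49 and -0.51 against 0.02, -0.20 and 0.38. Its dexamethasone cultures were again all above the vehicle cultures, though spread more widely. The difference was 0.53 ± 0.22 (SE), or 1.44-fold (limma adjusted p = 0.732). Within the clean set the differences were 0.60 for Col4a1 and 0.45 for Col4a2, and within the dim set 0.78 and 0.61, so each set of arrays placed both genes higher. After centring, Col4a1 was at 0.42, still without overlap. Col4a2 was then at 0.22 and its groups overlapped (limma unadjusted p = 0.555). Each gene has 1 probe, free of low signal. Col4a1 kept an unadjusted p under 0.05 in 12 of 15 alternative analyses, with limma adjusted p from 0.0947 to 0.99 over all 15. The other 3 were the replicate block (unadjusted p = 0.0554), centring (0.183) and quantile normalization (0.121).

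Col4a1 and Col4a2 lie head to head on mouse chromosome 8 and are transcribed in opposite directions from one shared start region, which is why their promoters are shown together. In RefSeq (GRCm38.p6), the window from 250 bases before to 50 after each start is chr8:11312777-11313076 on the minus strand for Col4a1 and chr8:11312555-11312854 on the plus strand for Col4a2, and these windows overlap by 78 bases. The window of Col1a2 (chr6:4505368-4505667, plus strand) is given as a fibrillar gene with a difference of the opposite sign. Capitals mark CCAAT and GGGCGG, on either strand, read 5′ to 3′ along each gene's own strand.
Col4a1: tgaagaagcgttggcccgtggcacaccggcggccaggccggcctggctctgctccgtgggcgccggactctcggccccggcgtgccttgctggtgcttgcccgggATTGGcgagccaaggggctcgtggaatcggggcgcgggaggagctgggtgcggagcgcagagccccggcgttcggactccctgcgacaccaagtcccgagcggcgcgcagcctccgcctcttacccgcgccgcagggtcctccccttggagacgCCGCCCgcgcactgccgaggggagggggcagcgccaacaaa
Col4a2: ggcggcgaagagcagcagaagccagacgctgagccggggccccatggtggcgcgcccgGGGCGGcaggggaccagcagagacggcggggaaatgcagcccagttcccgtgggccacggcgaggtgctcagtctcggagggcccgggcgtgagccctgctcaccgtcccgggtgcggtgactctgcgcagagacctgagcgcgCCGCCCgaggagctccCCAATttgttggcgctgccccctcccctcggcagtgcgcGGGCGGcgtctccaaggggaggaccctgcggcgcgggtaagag
Col1a2: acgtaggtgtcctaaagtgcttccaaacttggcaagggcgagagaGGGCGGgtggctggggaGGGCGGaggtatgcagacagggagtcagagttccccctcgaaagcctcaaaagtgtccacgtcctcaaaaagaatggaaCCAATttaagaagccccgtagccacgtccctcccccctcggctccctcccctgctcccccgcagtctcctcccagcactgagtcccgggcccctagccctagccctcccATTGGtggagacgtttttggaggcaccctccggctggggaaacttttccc
The Col4a1 window held 1 CCAAT and 1 GGGCGG, the Col4a2 window 1 and 3, and the Col1a2 window 2 and 2. The GGGCGG of the Col4a1 window lies in the overlap and is the same site as the last GGGCGG of the Col4a2 window, counted for both. Promoter windows were found for 32 of the 41 collagen genes (35 windows). GGGCGG occurred in 62.9% of these windows against 35.7% of 32851 windows of all genes, and CCAAT in 37.1% against 37.4%. The glucocorticoid receptor full site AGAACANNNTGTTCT was in 0 of the 35 windows and in 0.009% of all windows. The single repeat AGAACA was in 5.71% (Col20a1 and Col9a1) against 18.97%; all searches covered both strands, and the single repeat is contained in the full site. A match or its absence describes the letters of these windows only.

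The remaining type IV chains are paired in the same way, Col4a3 with Col4a4 and Col4a5 with Col4a6, and serve specialised basement membranes such as those of the kidney glomerulus. Col4a4 had -0.26, -0.80 and -0.35 against 0.07, 1.67 and 0.64, without overlap, a difference of 1.26 ± 0.47 (SE), or 2.40-fold (limma unadjusted p = 0.0419, adjusted p = 0.732). Both of its probes carried a whole-number ratio on 1 array, so it has no value once low-signal probes are left out. The probes gave 1.04 without overlap and 1.56 with overlap. The latter probe had no value on dexamethasone 3, so the averaged value there is that of the other probe alone. Its partner Col4a3 had -1.14, -1.17 and 1.29 against -2.30, 0.55 and 1.66. These values overlapped widely, and the high and low arrays followed the array set rather than the treatment. Col4a5 was the 1 collagen gene with all dexamethasone values below the vehicle values: 0.08, 0.20 and 0.10 against 0.04, -0.83 and -0.32. Its difference was -0.50 ± 0.28 (SE; limma adjusted p = 0.732), with -0.09 in the clean set and -0.68 in the dim set. These values are means of 2 probes, which gave -0.24 with overlap and -0.75 without overlap. Its partner Col4a6 had -0.23, -1.15 and 0.09 against -2.82, 1.63 and 0.04, which overlapped, and it too has no probe free of missing or low-signal values.

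Types XV and XVIII carry glycosaminoglycan chains, and the end of the type XVIII chain is released as endostatin. Col18a1 had -0.27, -0.31 and -0.26 against -0.21, 0.17 and 0.07, a difference of 0.29 ± 0.19 (SE) without overlap. The clean-set difference was 0.08, and the difference after centring was -0.018, so its direction depends on the scaling. Its 2 probes gave 0.45 without overlap and 0.13 with overlap. Col15a1 had -0.08, -0.24 and 0.25 against 0.14, 0.09 and 0.30, which overlapped (0.20 ± 0.21, SE; -0.11 after centring). Col7a1, the chain of the fibrils that anchor epithelium to the underlying tissue, had -0.46, -0.32 and -0.02 against -0.50, 0.71 and 0.79. The 2 higher values were both in the dim set, where its difference was 0.77, against -0.11 in the clean set. Its 2 probes gave 1.24 and -0.04, and the lower probe had 0.04 and -0.39 on dexamethasone 2 and 3.

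**Figure D2:**
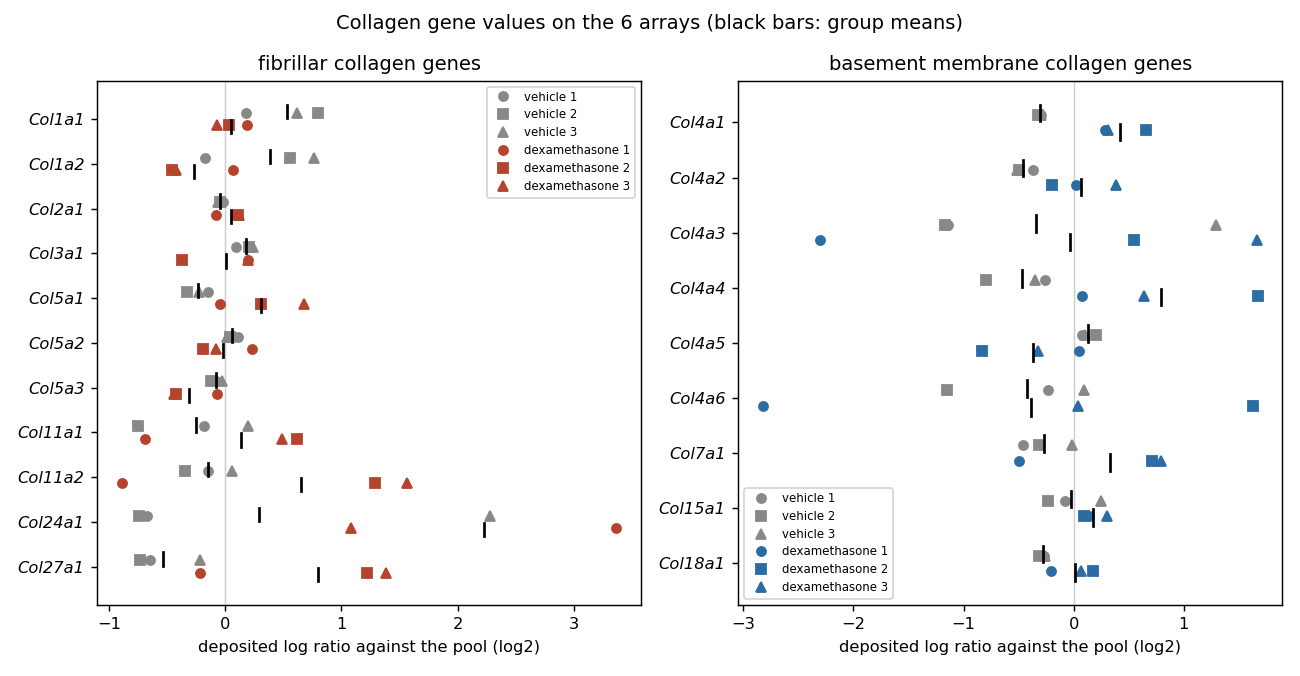
Deposited log2 ratio against the pool on each of the 6 arrays for the 11 fibrillar (left) and 9 basement membrane (right) collagen genes; grey symbols are vehicle, coloured symbols dexamethasone, symbol shape gives the replicate and black bars the group means. Col4a1 has its vehicle values between -0.33 and -0.30 and its dexamethasone values between 0.29 and 0.66, while Col1a1 and Col1a2 lie to the left in dexamethasone but overlap.

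The genes of type I collagen, the most abundant fibrillar collagen, had the opposite sign. Col1a1 had values of 0.18, 0.80 and 0.62 in the vehicle cultures against 0.19, 0.03 and -0.07 in the dexamethasone cultures. Dexamethasone 1 and vehicle 1 were nearly equal, and the other dexamethasone values were the lowest of the 6. The difference was -0.48 ± 0.24 (SE), or 1.40-fold lower (limma unadjusted p = 0.0956, adjusted p = 0.732). Col1a2, whose chain joins that of Col1a1 in the type I molecule, had -0.17, 0.56 and 0.77 against 0.07, -0.46 and -0.42. Vehicle 1 was below dexamethasone 1, so these groups overlapped too, and the difference was -0.66 ± 0.33 (SE), or 1.58-fold lower (limma adjusted p = 0.732). The clean-set and dim-set differences were -0.30 and -0.64 for Col1a1 and -0.13 and -1.21 for Col1a2. The sign was negative for both genes in each of the 15 alternative analyses, from -1.09 to -0.35 for Col1a1 and from -1.17 to -0.47 for Col1a2, and neither passed at an adjusted p under 0.05 in any of them.

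Type III collagen is a homotrimer that forms fibrils together with type I. Col3a1 had 0.09, 0.20 and 0.24 against 0.20, -0.37 and 0.20, a difference of -0.17 ± 0.23 (SE). Only dexamethasone 2 stood apart, and without it the difference was 0.018. Its 2 probes gave -0.46 and 0.12. Type V collagen, which starts fibrils and limits their width, gave values of both signs. Col5a1 had -0.15, -0.33 and -0.23 against -0.05, 0.31 and 0.68, without overlap, a difference of 0.55 ± 0.25 (SE), or 1.46-fold (limma adjusted p = 0.732). Its difference was 0.19 in the clean set and 0.72 in the dim set. Col5a2 had 0.11, 0.04 and 0.01 against 0.23, -0.19 and -0.08 (-0.07 ± 0.20, SE), and Col5a3 had -0.08, -0.12 and -0.03 against -0.07, -0.43 and -0.44 (-0.24 ± 0.19, SE). Both overlapped.

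The groups overlapped for Col2a1, Col11a1 and Col11a2, the fibrillar genes of cartilage. Col2a1, the main cartilage collagen, stayed near the pool on all arrays (-0.02, -0.05 and -0.07 against -0.08, 0.11 and 0.12; 0.09 ± 0.17, SE), and it was -0.21 after centring. Col11a1 had -0.18, -0.76 and 0.19 against -0.69, 0.61 and 0.49 (0.39 ± 0.47, SE). Col11a2 had -0.15, -0.34 and 0.06 against -0.89, 1.29 and 1.57 (0.80 ± 0.71, SE). In both averages dexamethasone 1 was among the lowest and the dim-set dexamethasone arrays were the highest. For Col11a1 the 5 probes ranged from -0.14 to 1.27, and the highest, a low-signal probe, had -4.70, 4.13 and 1.81 with dexamethasone. The 4 other Col11a1 probes had 0.28, 0.25, 0.29 and 0.42 on dexamethasone 1, so the averaged pattern is not theirs. Without the low-signal probe the Col11a1 difference was 0.16 ± 0.20 (SE). Type XXVII collagen is a fibrillar type expressed in developing cartilage and some epithelia. Col27a1 had -0.65, -0.73 and -0.22 against -0.22, 1.22 and 1.38, where the highest vehicle value and the lowest dexamethasone value nearly coincided. Its difference was 1.33 ± 0.50 (SE), or 2.51-fold (limma unadjusted p = 0.0437, adjusted p = 0.732), with 0.47 in the clean set and 1.52 in the dim set. Its 2 probes gave 1.18 without overlap and 1.48 with overlap. Col24a1, a type XXIV gene of developing bone, had -0.68, -0.75 and 2.28 against 3.37 and 1.08 on dexamethasone 1 and 3 and no value on dexamethasone 2. Both of its probes had missing values, and its groups overlapped.

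Among the 21 other collagen genes, the type VI microfilament gene Col6a2 was the clearest. It had -0.11, -0.27 and -0.04 against 0.08, 0.97 and 0.57, without overlap, a difference of 0.68 ± 0.28 (SE), or 1.61-fold (limma adjusted p = 0.732). The difference was 0.27 in the clean set and 0.81 in the dim set. Col6a1, whose chain assembles with that of Col6a2, had -0.16, -0.37 and -0.26 against -0.12, -0.36 and -0.04 and a difference of 0.09 ± 0.19 (SE), which was -0.22 after centring. Its 3 probes gave 0.02 to 0.12, the closest agreement of any collagen gene with several probes. Col6a6 had 0.04, 0.57 and 0.62 against -0.27, 1.54 and 1.90 (0.64 ± 0.64, SE), and it was -0.47 after quantile normalization.

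Col12a1 and Col14a1 encode chains that decorate the surface of type I fibrils. Col12a1 had -0.31, -0.58 and -0.51 against -0.31, 0.40 and 1.02, a mean of probes that went opposite ways: 2.21 at one, which had a low-signal value, and -0.53 at the other. Its averaged difference of 0.84 ± 0.38 (SE) therefore stands for neither probe. Col14a1 had -0.28, 0.04 and 0.24 against -0.13, 0.71 and 1.21, which overlapped (0.60 ± 0.40, SE). Col13a1, a transmembrane collagen, had the highest difference of all, 3.99 ± 1.64 (SE; limma adjusted p = 0.732), from -0.62, -2.68 and 2.39 against 3.87 and 3.50 on dexamethasone 1 and 3. Its single probe had no value on dexamethasone 2, and the vehicle values alone spanned over 5 log2 units. Col25a1, a transmembrane collagen of neurons and muscle, had -0.34, -0.58 and 0.49 against -0.30, 1.34 and 1.45 (0.97 ± 0.60, SE). Its 5 probes ranged from -0.10 to 1.60. Col20a1 (0.90 ± 0.76, SE) and Col22a1 (0.54 ± 0.49, SE) also overlapped between groups and have 1 low-signal probe each. The other 11 genes of these types that were tested had differences from -0.37 for Col16a1 to 1.13 for Col9a2, and in all 11 the groups overlapped. Of the cartilage type IX genes, Col9a1 differed by 0.72 ± 0.90, Col9a2 by 1.13 ± 1.34 and Col9a3 by -0.09 ± 0.53 (SE). Col10a1, the gene of hypertrophic cartilage, differed by 0.21 ± 0.34 (SE). The type VIII network genes Col8a1 and Col8a2 differed by -0.20 ± 0.44 and 0.18 ± 0.42 (SE). Col17a1, a transmembrane collagen of epithelial hemidesmosomes, differed by 0.33 ± 0.35 (SE), and the transmembrane Col23a1 by -0.11 ± 0.23 (SE). The fibril-associated Col19a1 differed by 1.01 ± 1.33 and Col16a1 by -0.37 ± 0.38 (SE), and the type VI gene Col6a4 by 0.80 ± 0.83 (SE) with no value on dexamethasone 2. Each of these 11 differences was smaller than its own error.

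**Figure D3:**
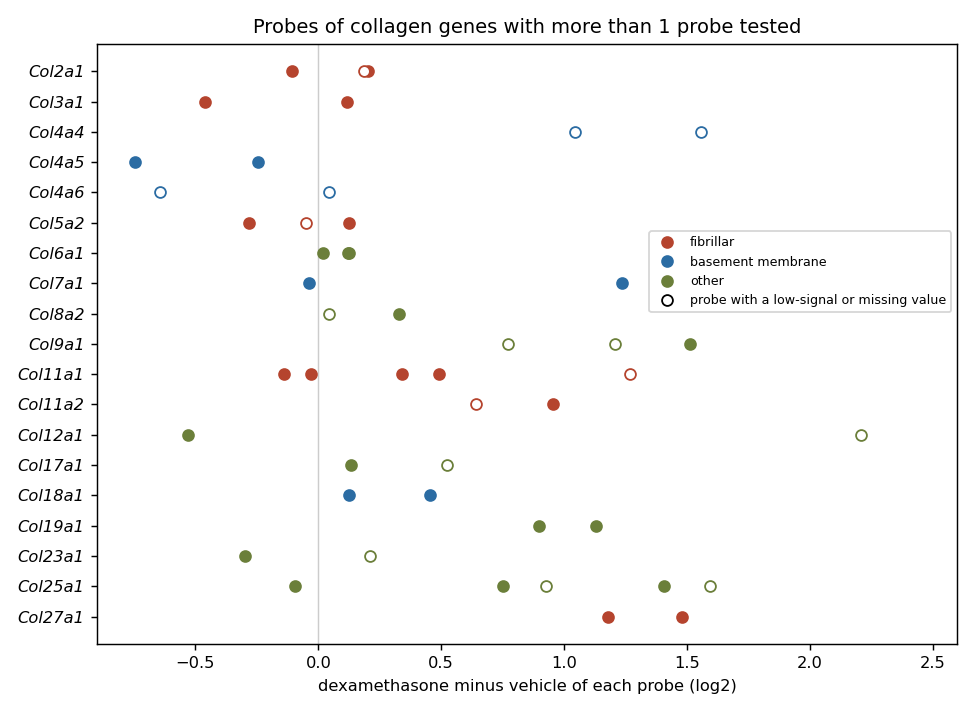
Difference, dexamethasone minus vehicle, of each single probe for the 19 collagen genes with more than 1 probe tested, coloured by class; open symbols are probes with a missing or low-signal value on at least 1 array. The probes lie close together for Col6a1 (0.02 to 0.12) and far apart for Col12a1 (-0.53 and 2.21).

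Probe agreement and signal limited what could be read for many of the genes. Of the 19 collagen genes with more than 1 probe tested, 9 had probes of opposite sign. A missing or low-signal value was present in 24 of the 72 probes, and 8 of the 41 genes had no other kind of probe. Without such probes, 33 collagen genes were left, with a median difference of 0.21 against 0.17 for all 17152 features. None of the 33 passed (0 called, background 0.169%), and 4 had an unadjusted p under 0.05, all higher (Col4a1, Col4a2, Col27a1 and Col6a2; 12.1%, background 4.9% higher and 2.56% lower). Under this filter Col4a1 had an adjusted p of 0.356, and the other 3 had 0.574. Of the 33, 6 were higher without overlap (18.2%, background 10.4%) and 1 was lower (3.03%, background 9.33%).

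The sign of the difference was also set side by side between the clean and dim sets, each of which has 1 array in one of its groups and so gives no test. In the clean set, 20 of 40 collagen genes were above 0 and 20 below, with a median of 0.008. In the dim set, 25 were above and 15 below, with a median of 0.36. Over all features with a value in both sets, the medians were -0.05 in the clean set and 0.26 in the dim set. The sign was the same in both sets for 19 genes and opposite for 21 (52.5%), against opposite signs in 47.9% of the 26196 features with a value in both sets. Of the 19, 12 were above 0 in both (Col4a1, Col4a2, Col4a4, Col18a1, Col5a1, Col27a1, Col6a1, Col6a2, Col9a2, Col12a1, Col13a1 and Col25a1) and 7 below in both (Col1a1, Col1a2, Col4a3, Col4a5, Col9a3, Col16a1 and Col23a1). The basement membrane median was 0.08 in the clean set and 0.61 in the dim set, and the fibrillar median 0.03 and -0.15. The dexamethasone arrays were also the more scattered: the SD was larger in dexamethasone than in vehicle for 33 of 40 collagen genes (82.5%), against 80.7% of all features. The part of signal quality in these differences was not tested.

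**Figure D4:**
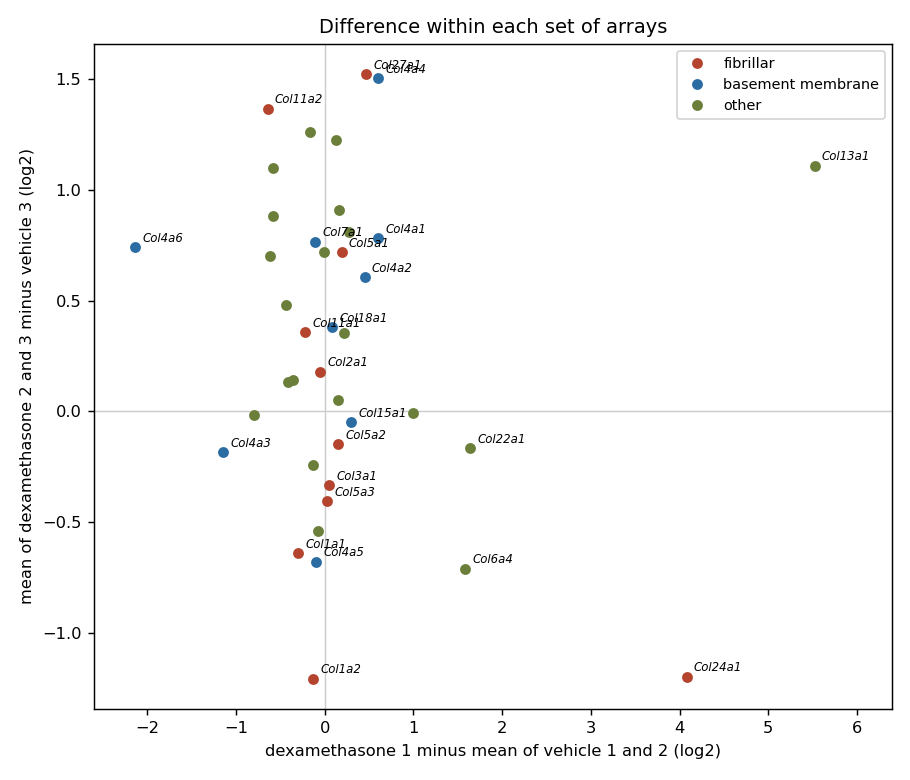
Difference of each of the 40 collagen genes within each set of arrays: on the x axis dexamethasone 1 minus the mean of vehicle 1 and 2 (clean set), on the y axis the mean of dexamethasone 2 and 3 minus vehicle 3 (dim set), in log2, coloured by class. Col4a1 (0.60, 0.78) and Col4a2 (0.45, 0.61) lie at the upper right, Col1a1 (-0.30, -0.64) at the lower left, and 21 genes lie where the signs differ.

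Collagen chains are hydroxylated, folded, secreted, trimmed and cross-linked by a set of dedicated proteins, and bound by integrins and discoidin receptors. Of a list of 46 such genes, 43 were measured. None passed (0 called at a limma adjusted p under 0.05), 1 was under an unadjusted p of 0.05 (2.33%, background 5.43%), and the median difference was 0.12, below the 0.32 of all features. The 1 gene was Loxl3, which encodes a lysyl oxidase-like cross-linking enzyme: -0.85, -0.65 and -0.68 against 0.43, 0.45 and -0.33, without overlap, a difference of 0.91 ± 0.28 (SE; limma unadjusted p = 0.0223, adjusted p = 0.732). Its single probe has a low-signal value. Its relative Loxl2 had a difference of 0.85 ± 0.42 (SE) and overlapped. The groups did not overlap in 9 of the 43, with 7 higher (16.3%, background 10.4%) and 2 lower (4.65%, background 6.42%); after centring these counts were 1 and 1, or 2.33% each, against 6.43% of all features higher and 3.82% lower.

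Lum, which encodes lumican, a regulator of fibril spacing, had 0.40, 0.13 and 0.21 against 0.13, -0.28 and -0.26, without overlap, a difference of -0.38 ± 0.21 (SE). Bgn, which encodes biglycan, had a difference of -0.52 ± 0.26 (SE) with overlapping groups. Fmod and Dcn, genes of the related proteoglycans fibromodulin and decorin that were added after their values were seen, differed by 1.14 ± 0.99 and 0.001 ± 0.26 (SE), both with overlap. Itga2, which encodes the collagen-binding chain of an integrin, had -0.17, -0.24 and -0.03 against 0.10, 0.97 and 0.12, without overlap (0.54 ± 0.30, SE). Tll2, a tolloid-like protease gene, had a difference of 1.39 ± 0.69 (SE) with no value on dexamethasone 2. Itga2 and Tll2 have 1 probe each, neither free of missing or low-signal values. The limma adjusted p was 0.732 for each of Lum, Bgn, Itga2 and Tll2. The chaperone gene Serpinh1, the prolyl hydroxylase gene P4ha1 and the lysyl oxidase gene Lox, named for their place in the pathway after their values were seen, differed by -0.12 ± 0.23, 0.07 ± 0.16 and 0.07 ± 0.17 (SE), each less than its own error.

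Markers of the mesenchymal state were measured for 8 of 8 genes on a list that included Vim, Fn1, Prrx1 and Twist1. Their median difference was -0.25, with 5 of the 8 below 0 and 3 above. The 3 above 0 were Thy1 (1.28, the largest difference on the list), Pdgfra (0.38) and Cd44 (0.25), all with overlap. Lower without overlap were 3 of the 8 (Pdgfrb, Prrx1 and Twist1, background 6.42%). Medians for markers of other lineages were 0.20 for cartilage (5 genes), -0.01 for bone (4), 0.51 for fat (4), 0.97 for muscle (4), 1.25 for endothelium (4), 0.14 for blood (3) and 1.16 for epithelium (4). Without overlap, Sox9 of cartilage was lower, and Myod1 and Myog of muscle and Pecam1 of endothelium were higher (background 10.4%), while 0 of the marker genes passed at a limma adjusted p under 0.05. Ratios to a pool of the same cells do not show whether a marker is expressed. The part of these markers in the collagen values was not tested, and fewer cells of a type and less RNA per cell cannot be told apart in such samples.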

How the data were processed

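RNA of 6 cultures was hybridised against a common pool on two-colour arrays (culture in Cy3, pool in Cy5, per the labels). The authors deposited 1 score per probe and array, made with limma per the submitters' processing notes, whose background correction and normalization the sources used here do not give. The values were read as log2 ratios, although 53 exceed 100 in size. Symbols came from the platform annotation (29456 probes with 1, 760 with several, 8251 unlisted). Probes of a gene were averaged, and 2 values per group were required. limma 3.58.1 in R 4.3.3 (lmFit, eBayes) compared the groups on all arrays, with no block and a two-sided adjusted p under 0.05 (Benjamini-Hochberg). An exact permutation test of 3 against 3 cannot go below 0.1, and the number of arrays limits the precision. On simulated data with 27046 features, 0%, 8%, 38% and 32% of 50 genes changed by 1, 2, 3 and 4 log2 units were recovered, with 2 false calls. Low-signal probes are those that on at least 1 array lack a value, exceed 10 in size or equal a quotient of whole numbers up to 10, which can also happen by chance. Named were the fibrillar and basement membrane genes, Col6a1, Col6a2, Col12a1, Col14a1, the 8 other collagen genes and the 6 processing genes with the smallest p, and further members as values; Col6a3 was not analysed here. Members, lists and array sets were chosen with earlier results of these data known. Alternatives were blocks for replicate number or array set, centring, quantile normalization, complete genes, filters on dim or extreme values, array weights, single probes and leaving out each array; centring plus the low-signal filter was added after seeing the data. Promoter sequences are RefSeq's (GRCm38.p6).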

Additional observations from a re-analysis of the deposited data

How the results depend on the processing

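None of the 29 named collagen genes passed an adjusted p of 0.05 in any alternative (lowest limma adjusted p 0.0643). The number of all features passing was 0 in the planned fit, 5 with values on all 6 arrays, 29 without low-signal probes and 10 with centring added to that filter; it was 0 with each array left out in turn. The 3 collagen genes at an unadjusted p under 0.05 were 1 with the replicate block (4.88% of all features), 6 with array weights (12.1% of all features) and 1 to 14 without 1 array (2.63% to 29.2% of all features). The replicate numbers gave no pairing (Spearman correlations of deviations 0.28, -0.17 and 0.35 for the same-numbered arrays), and the block called 0 features. The processing genes' count of 1 was 0 after centring, after quantile normalization and without low-signal probes, 2 with array weights and 0 to 6 without 1 array. After centring, the median difference was 0.15 over all collagen genes, -0.21 over fibrillar and 0.0003 over basement membrane genes. After quantile normalization it was 0.0865 over all, -0.18 over fibrillar and 0.029 over other genes. With the low-signal filter and centring it was 0.076 over all, -0.15 over fibrillar and 0.14 over other genes. The basement membrane median was 0.64 with array weights and 0.24 to 0.80 without 1 array. The cause of these shifts was not tested. Of 417 alternative values for the named genes, 25 had the opposite sign, in 11 genes. After centring these were Col15a1 (-0.11), Col18a1 (-0.018), Col4a6 (-0.26), Col2a1 (-0.21) and Col6a1 (-0.22). After quantile normalization they were Col4a6 (-0.088), Col2a1 (-0.18), Col6a1 (-0.070), Col22a1 (-0.017) and Col6a6 (-0.47). With the array set as a block they were Col4a3 (-0.67), Col4a6 (-0.70) and Col5a2 (0.0022). Col12a1 was -0.53 without low-signal probes, where only its lower probe is left, and -0.66 with centring added, where Col2a1 was -0.083 and Col6a1 -0.042. Without 1 array, Col4a3 ran from -0.54 to 1.44, Col4a6 from -0.96 to 1.26, Col3a1 from -0.27 to 0.018 and Col5a2 from -0.19 to 0.020. Dim or missing signal limits Col4a4, Col4a6, Col13a1, Col20a1, Col22a1, Col24a1, Col26a1 and Col6a4, which have no probe free of it.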
